A study of Mus musculus with 28 samples.

Results

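The genes of the muscle Z-disc were followed in mouse embryonic fibroblasts (MEFs) that had been driven toward a cardiomyocyte state with transcription factors. The 10 genes (Actn2, Ldb3, Pdlim5, Nexn, Nebl, Smpx, Myoz2, Csrp3, Tcap and Myot) were taken by symbol from the platform's probe annotation, and each was represented by the probe set whose mean signal was highest. They are 10 of the 19938 genes that have a probe set of 1 symbol. A gene was tested if its signal lay above the array's median on at least 3 of the 28 arrays, which 12211 genes and 9 of the 10 did. Tcap lay below the median on 28 of 28 arrays and was not tested.

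Gene expression was measured with 1-colour arrays in 7 groups. The 0F group (3 arrays) was MEFs that received no virus and were collected at day 21. The other 6 groups received lentivirus for rtTA, the protein that switches on tetO promoters with doxycycline, and for a reporter in which the Troponin T promoter drives a calcium sensor and zeocin resistance. GMT (5 arrays) further received tetO viruses for GATA4, MEF2C and TBX5. NGMT (6 arrays) had NKX2.5 added to these 3 factors, HGMT (3 arrays) had Hand2 added, and HNGMT (3 arrays) had both added. DMT (4 arrays) received MYOCD, MEF2C and TBX5, and DMNT (4 arrays) received these and NKX2.5. All transduced groups were kept in reprogramming medium with doxycycline at 2 µg/mL, were selected for 7 days in zeocin at 300 µg/mL and were collected at day 21. They are therefore populations of cells in which the Troponin T promoter had been active enough for resistance, and a comparison with 0F spans virus, medium, doxycycline and selection as well as the factors. The source label calls every sample selected cells, 0F included, and the sample titles were followed here. Per the labels, replicates were independent biological samples.

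The Z-disc is the plate at each end of the sarcomere in which actin filaments of opposite polarity are crosslinked by alpha-actinin. LIM and PDZ proteins and calsarcins bind alpha-actinin there and link the contractile lattice to signalling proteins, the titin cap holds the ends of titin, and costameres tie the outermost Z-discs to the cell membrane. Several of the genes are known from inherited cardiomyopathy or myopathy, and alpha-actinin staining of Z-discs is a usual readout of sarcomeres in reprogrammed fibroblasts.

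Promoter windows are shown for 3 genes. Smpx and Myoz2 were both called lower when Hand2 was added or MYOCD replaced GATA4, and Actn2 was called lower in neither case. Myoz2 lay below the array median in every group of these comparisons, so its calls are between low signals. Each window is the 250 bases before a RefSeq gene start in GRCm38.p6, written 5′ to 3′ on the gene's strand. The Smpx window is chrX:157698723-157698972 on the plus strand. The Myoz2 window is chr3:123034988-123035237 and the Actn2 window chr13:12340733-12340982, both on the minus strand. The Myoz2 start used here lies inside the gene span given below (chr3:123006206-123035003), so the last bases of its window fall within that span. Capitals mark GATAA (the core of a GATA site) and a longer pattern, which is CTA and TAG with any 4 bases between them. The pattern takes in the MEF2 site, whose middle bases are limited to adenine and thymine.
Smpx: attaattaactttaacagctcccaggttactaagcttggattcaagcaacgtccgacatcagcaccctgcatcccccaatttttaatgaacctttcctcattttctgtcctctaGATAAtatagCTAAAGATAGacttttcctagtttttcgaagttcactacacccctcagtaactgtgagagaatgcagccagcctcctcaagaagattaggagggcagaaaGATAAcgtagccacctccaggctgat
Myoz2: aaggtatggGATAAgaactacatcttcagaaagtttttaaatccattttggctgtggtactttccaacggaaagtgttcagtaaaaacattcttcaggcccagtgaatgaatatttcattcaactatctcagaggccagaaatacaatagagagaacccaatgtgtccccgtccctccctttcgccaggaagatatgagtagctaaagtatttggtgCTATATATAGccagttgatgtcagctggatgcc
Actn2: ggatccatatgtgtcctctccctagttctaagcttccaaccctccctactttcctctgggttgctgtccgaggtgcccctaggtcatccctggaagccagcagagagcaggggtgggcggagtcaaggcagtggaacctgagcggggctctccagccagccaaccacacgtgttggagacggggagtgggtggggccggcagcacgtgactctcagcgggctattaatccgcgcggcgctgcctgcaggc
The Smpx window held 2 matches of GATAA, beginning 136 and 26 bases before the start, and 1 of the longer pattern, CTAAAGATAG, beginning 126 bases before it. The Myoz2 window held 1 GATAA and 1 match of the longer pattern, CTATATATAG, which began 33 bases before the start. Of the matches of the longer pattern in the 3 windows, only that of Myoz2 meets this limit. The Actn2 window had 0 matches of either and so carries no capitals. It held 3 matches of CANNTG, the E-box of basic helix-loop-helix factors, while the Myoz2 window held 2 and the Smpx window 0. Both strands were searched, and of 32851 RefSeq promoter windows of this length 22.6% held GATAA, 3.2% the longer pattern and 66.2% CANNTG. The windows of 2 of the 4 Nebl starts also held GATAA, and Nebl rose when MYOCD replaced GATA4 and was not called with Hand2. A window of Ldb3 also held the longer pattern, CTATTCTTAG, beginning 55 bases before its start. Ldb3 was called neither when Hand2 was added nor when MYOCD replaced GATA4. The letters describe these windows and say nothing on whether a factor bound there.

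The arrays fell into 3 separately scaled sets, found from the distance between their sorted values, which was at most 0.0486 log2 inside a set and at least 0.135 between sets. Set 1 held the 3 0F arrays, GMT replicates 1 and 2 and NGMT replicates 1 to 3. Set 2 held GMT replicates 3 to 5, NGMT replicates 4 to 6, the first 3 DMT arrays and all HGMT and HNGMT arrays. Set 3 held DMT replicate 4 and the 4 DMNT arrays. The array median was 6.68 to 6.75 in set 1, 6.86 to 6.95 in set 2 and 7.64 to 7.65 in set 3, so a value of one set was not compared with a value of another. Many values were exactly equal on several arrays of a set (at least 3 arrays in 17.8%, 15.7% and 40.4% of probe sets in sets 1, 2 and 3), so the spread between such arrays may understate the error. HNGMT replicate 1 stood apart from its group, with an SD of the difference from the other HNGMT arrays of 0.35 and 0.38 over all probe sets against 0.18 between those arrays. The members called in the HNGMT comparisons of set 2 numbered the same with and without it.

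All values below are deposited log2 signals, and differences are log2 differences between group means of 1 set with the standard error from limma. A difference was called at a Benjamini-Hochberg adjusted p under 0.05 over the 12211 genes. In bulk RNA, a smaller number of expressing cells and less RNA per cell cannot be told apart.

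**Figure D1:**
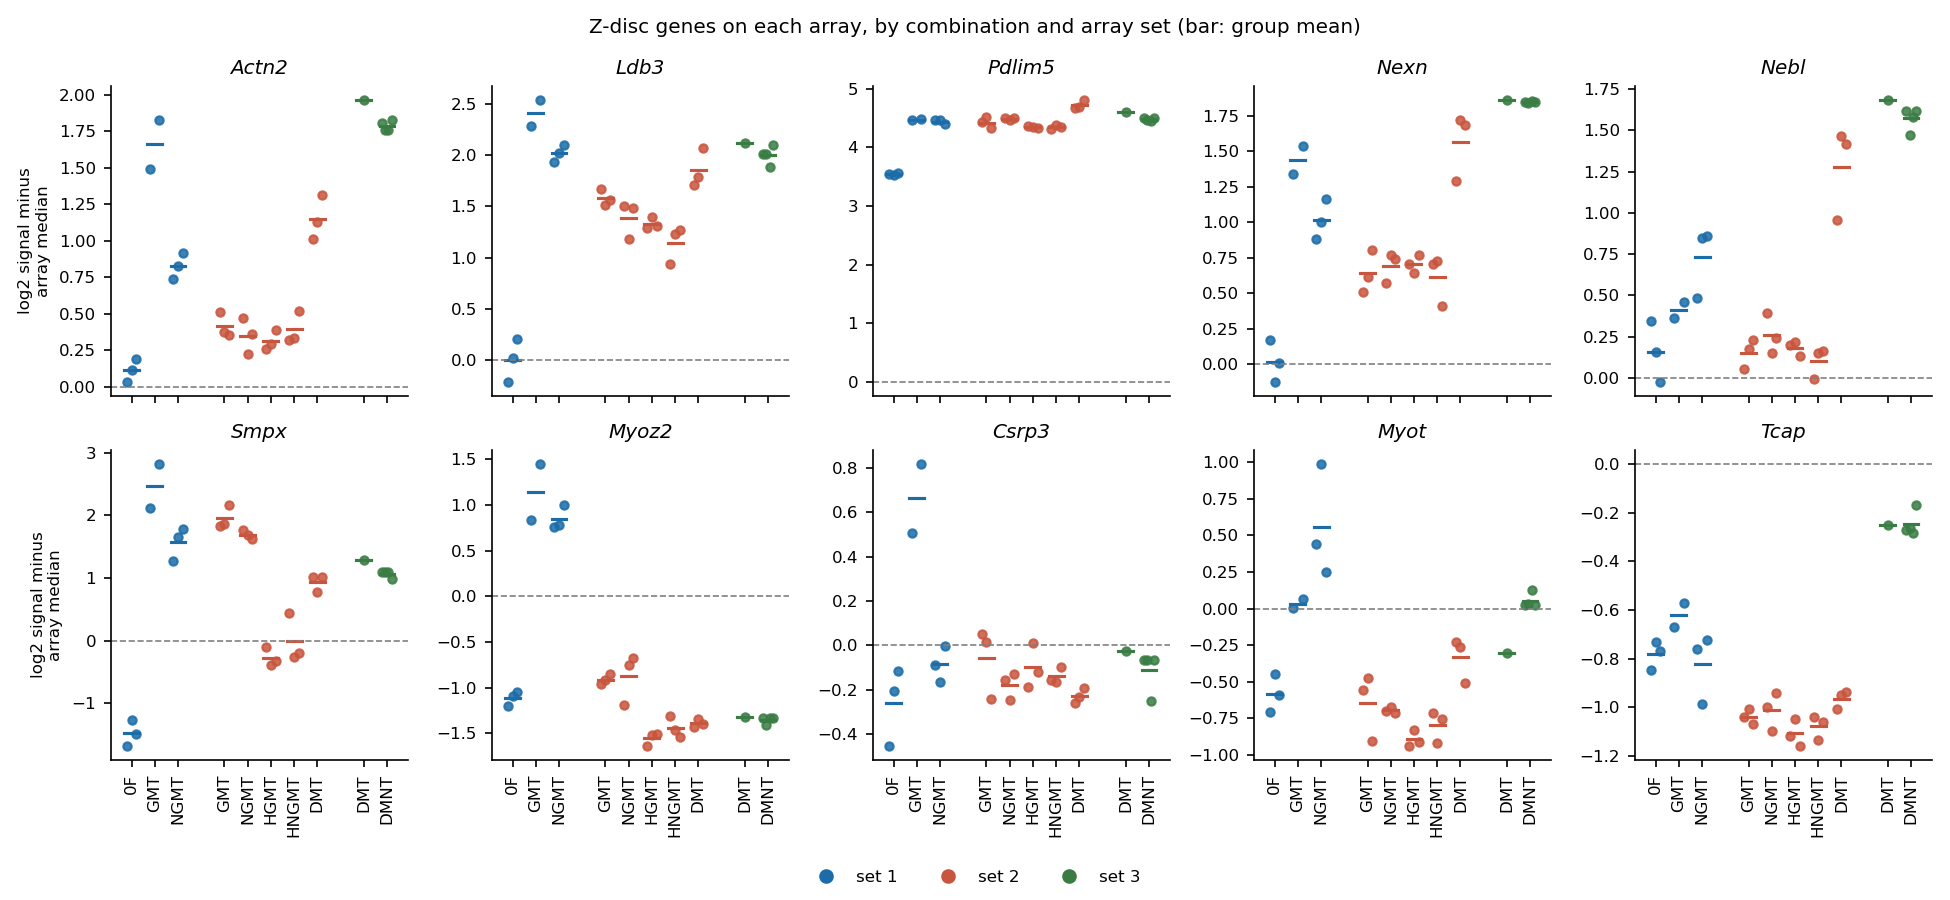
Log2 signal minus the array median (vertical axis) of each Z-disc gene, by group (horizontal axis) and array set (colour). Each point is 1 array, bars are group means and the dashed line is the array median. In set 1, Smpx lay between -1.67 and -1.27 on 0F arrays and at 2.12 and 2.82 on GMT arrays, while Tcap lay below it on all 28 arrays.

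The first comparison asked what the GMT and NGMT populations of set 1 carried that untransduced MEFs did not. The gene of largest difference was Smpx, which encodes the small muscle protein chisel of costameres (chrX:157698973-157752591). It read 5.08, 5.47 and 5.19 on the 0F arrays, 8.87 and 9.52 on the GMT arrays and 8.01, 8.40 and 8.47 on the NGMT arrays. All 5 transduced arrays thus lay far above 0F, and NGMT lay below GMT without overlap. Smpx was 15.4-fold higher in GMT (3.95 ± 0.19, SE, n = 2 against 3, adjusted p = 9.01e-15) and 8.25-fold higher in NGMT (3.05 ± 0.17, n = 3 against 3, adjusted p = 1.22e-13).

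Actn2, the alpha-actinin of the heart and the crosslinker on which the Z-disc is built (chr13:12269426-12340732), rose as well. Its values were 6.79, 6.85 and 6.87 in 0F, 8.24 and 8.53 in GMT, and 7.47, 7.56 and 7.61 in NGMT. The 3 groups did not overlap and stood in the order GMT, NGMT, 0F. The difference from 0F was 1.54 ± 0.09 in GMT (adjusted p = 3.36e-13) and 0.71 ± 0.08 in NGMT (adjusted p = 4.4e-08).

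The PDZ-LIM genes also rose. Ldb3 encodes ZASP (Cypher), which binds alpha-actinin through its PDZ domain (chr14:34526699-34590314). It read 6.54, 6.75 and 6.89 in 0F, 9.03 and 9.23 in GMT and 8.66, 8.75 and 8.79 in NGMT. Every transduced array was above every 0F array, by 2.40 ± 0.12 on average in GMT and 2.01 ± 0.11 in NGMT (adjusted p = 1.92e-14 and 5.98e-14). Pdlim5 (chr3:142239585-142395719), the related ENH protein, was already far above the array median in 0F, at 10.31, 10.27 and 10.25. It was 11.21 and 11.18 in GMT and 11.19, 11.19 and 11.09 in NGMT. Its rise was smaller but had the smallest standard error of the 9 genes, 0.92 ± 0.05 in GMT and 0.88 ± 0.04 in NGMT (adjusted p = 7.28e-14 and 1.66e-14).

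Of the actin-binding members, Nexn, which encodes the F-actin binding protein nexilin (chr3:152236982-152266350), rose in both groups. It read 6.93, 6.61 and 6.69 in 0F, 8.09 and 8.23 in GMT and 7.61, 7.74 and 7.86 in NGMT, again with no overlap. The differences from 0F were 1.42 ± 0.12 (adjusted p = 4.86e-10) and 0.99 ± 0.11 (adjusted p = 3.02e-08). Nebl encodes nebulette, the short cardiac relative of nebulin (chr2:17342673-17734949). It read 7.10, 6.89 and 6.66 in 0F, 7.11 and 7.16 in GMT and 7.22, 7.58 and 7.55 in NGMT. The GMT arrays lay just above the highest 0F array, and that difference was not called (0.25 ± 0.13, adjusted p = 0.113), while NGMT was higher than 0F (0.56 ± 0.12, adjusted p = 0.000221).

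Myoz2 encodes myozenin-2 (calsarcin-1), which ties calcineurin to alpha-actinin (chr3:123006206-123035003). It read 5.55 to 5.64 in 0F, 7.58 and 8.14 in GMT and 7.49 to 7.69 in NGMT. Only these 5 transduced arrays of set 1 lay above their array median among all 28, so Myoz2 could be tested only because it was high there. Its differences of 2.25 ± 0.13 in GMT and 1.96 ± 0.11 in NGMT are given as values. Csrp3, the muscle LIM protein (chr7:48830398-48848051), read 6.30, 6.53 and 6.57 in 0F, 7.25 and 7.51 in GMT and 6.64, 6.56 and 6.69 in NGMT. GMT stood alone, higher than 0F by 0.92 ± 0.09 (adjusted p = 3.4e-09), while NGMT overlapped 0F (0.17 ± 0.08, adjusted p = 0.0733). Csrp3 passed the filter through 5 arrays, which were 2 GMT arrays of set 1, 2 GMT arrays of set 2 and 1 HGMT array. It could be tested only because it was high in GMT, so its comparisons with GMT are not independent of the filter.

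Myot encodes myotilin, an actin and alpha-actinin binding protein best known from skeletal muscle. It read 6.05, 6.29 and 6.09 in 0F, 6.75 and 6.76 in GMT and 7.17, 7.72 and 6.94 in NGMT, so that NGMT was the highest group. It was higher than 0F by 0.61 ± 0.14 in GMT (adjusted p = 0.000731) and 1.14 ± 0.13 in NGMT (adjusted p = 4.51e-08), and it passed the filter through 9 transduced arrays. Tcap, the titin cap telethonin (chr11:98383811-98384953), read 5.91 to 6.00 in 0F, 6.08 and 6.12 in GMT and 5.74 to 5.97 in NGMT, all below the array median.

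Counted over the list, with Myoz2 among them, 8 of the 9 tested genes were called higher in GMT than in 0F and 0 lower, where 34.2% of all tested genes were called higher and 22.3% lower. In NGMT 8 of 9 were higher and 0 lower, against a background of 34.9% higher and 23.3% lower. Without Myoz2, which the filter admitted because it was high on these arrays, 7 of 8 were higher in GMT and 7 of 8 in NGMT. Csrp3 is among the 8, and it met the filter only because of its GMT arrays. The median difference of those 8 was 1.17 in GMT and 0.93 in NGMT, and that of all tested genes 0.05 and 0.04. Both comparisons used the same 0F arrays. Other cell type markers differed between the same arrays. Of the cardiomyocyte markers, 7 of 9 tested were higher in GMT (Tnnt2 by 5.12, Myl7 by 5.08 and Actc1 by 4.40), but Myh6 and Myh7, the heart's myosin heavy chains, differed by 0.00 and 0.04. All 9 fibroblast, 7 adipocyte and 8 macrophage markers were lower in GMT. The mean level of the adipocyte list was 11.88 to 11.92 on 0F arrays and 6.76 to 6.89 on GMT arrays of set 1, and that of the macrophage list 8.38 to 9.04 and 5.95 to 6.02. Of the mesothelial markers, 5 of 6 tested were higher in GMT, with a mean level of 9.17 to 9.25 against 6.26 to 6.30. Of the skeletal muscle markers, 2 of 8 tested were higher (the fast myosins Myh1 by 1.39 and Myh2 by 1.34), and the regulators Myod1, Myog, Myf5 and Myf6 were below the filter. Of the smooth muscle markers, 4 of 7 were higher (among them Acta2 by 1.37 and Tagln by 1.23) and 1 was lower. The part of these cell types in the Z-disc differences was not tested.

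**Figure D2:**
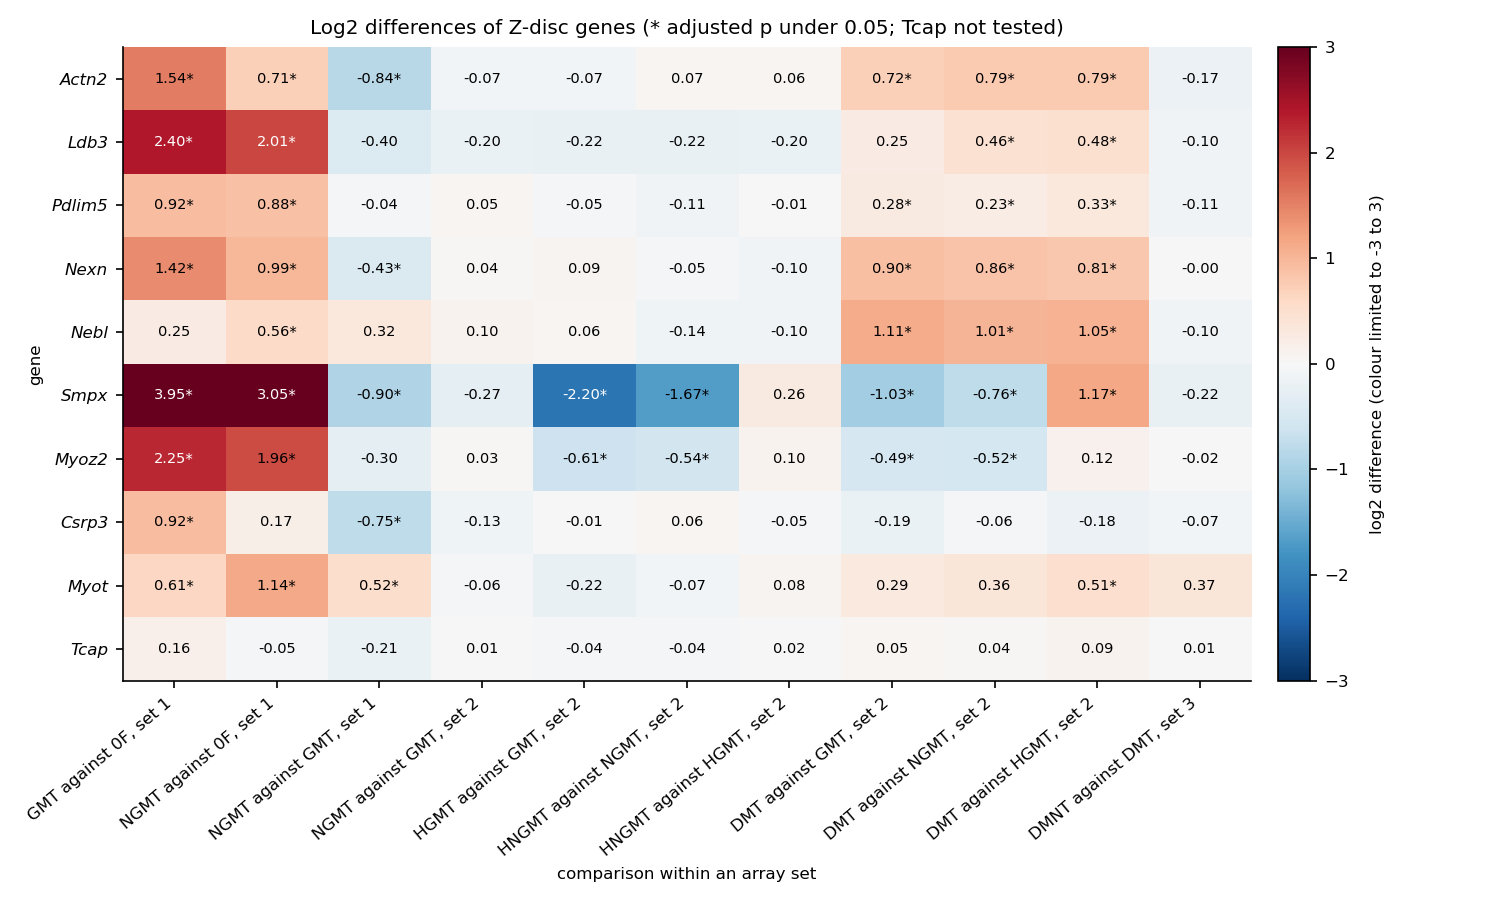
Log2 difference of each of the 10 Z-disc genes (rows) in each comparison within 1 array set (columns), as colour and printed value, with a star at an adjusted p under 0.05. Tcap was not tested. Smpx is highest in GMT against 0F (3.95) and lowest in HGMT against GMT (-2.20).

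Adding NKX2.5 to GMT was measured in sets 1 and 2, and the results differed between them. In set 1, 4 of the 9 genes were lower in NGMT than in GMT and 1 was higher, where 2.39% of all tested genes were called lower and 2.31% higher. Csrp3 is among the 4 and could be tested only because of its GMT arrays, so its part in this count is not independent of the filter. Actn2 was lower by 1.78-fold (-0.84 ± 0.09, n = 3 against 2, adjusted p = 2.5e-06), Csrp3 by 1.68-fold (-0.75 ± 0.09, adjusted p = 9.91e-06) and Smpx by 1.87-fold (-0.90 ± 0.19, adjusted p = 0.00388). Nexn was also called lower (-0.43 ± 0.12, adjusted p = 0.044), and Myot was called higher (0.52 ± 0.14, adjusted p = 0.0333). Ldb3 at -0.40 ± 0.12 missed the threshold (adjusted p = 0.0551), as did Myoz2 at -0.30 ± 0.13 (adjusted p = 0.271) and Nebl at 0.32 ± 0.13 (adjusted p = 0.242). Pdlim5 differed by -0.04, with a 95% interval from -0.14 to 0.06.

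These calls rested on 2 GMT arrays. Without GMT replicate 2, which held the highest Actn2, Csrp3 and Smpx values of set 1, 2 of the 9 genes were called and Smpx was not (-0.58, adjusted p = 0.307). Without NGMT replicate 1 or NGMT replicate 2, 3 were called. Nexn lost its call without GMT replicate 1 (adjusted p = 0.0837), GMT replicate 2 (0.496), NGMT replicate 1 (0.193) or NGMT replicate 2 (0.114), and Myot without the same arrays (adjusted p = 0.158, 0.255, 0.0523 and 0.196). Myot was also lost with the arrays of set 1 alone (adjusted p = 0.178), and Nexn with no filter on low signal (adjusted p = 0.059). Without GMT replicate 1, Myoz2 was called (-0.58, adjusted p = 0.0127). Actn2 and Csrp3 kept their calls without any one of the arrays. Csrp3 had met the filter only because of its GMT arrays, so its difference from GMT is not independent of the filter.

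In set 2, with 3 arrays of each group, 0 of the 9 genes were called in limma's test and 0 had an unadjusted p under 0.05. Of all tested genes 0.0328% were called there, and 367 had an unadjusted p under 0.05. Actn2 read 7.38, 7.25 and 7.28 in GMT and 7.34, 7.10 and 7.25 in NGMT, and the ranges overlapped. Its difference was -0.07 ± 0.08, with a 95% interval from -0.24 to 0.09 that leaves out the difference of set 1. Csrp3 read 6.92, 6.89 and 6.68 in GMT and 6.71, 6.63 and 6.76 in NGMT (-0.13 ± 0.08, interval from -0.29 to 0.03). Smpx read 8.70, 8.74 and 9.09 in GMT and 8.64, 8.56 and 8.51 in NGMT. These did not overlap, but the difference of -0.27 ± 0.17 was not called (adjusted p = 0.9996). Myot, the gene that rose in set 1, read 6.01 to 6.40 in GMT and 6.17 to 6.20 in NGMT of set 2.

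The difference between the NKX2.5 effects of the sets was itself tested. It was called for Actn2 (-0.76 ± 0.12, adjusted p = 0.00161) and Csrp3 (-0.62 ± 0.12, adjusted p = 0.0105), 2 of 9 genes where 0.639% of all tested genes were called. For Csrp3 the call was lost without GMT replicate 2 (-0.49, adjusted p = 0.234), and this gene met the filter only because of its GMT arrays. For the other 7 it was not called, with Smpx at -0.63 ± 0.25 (adjusted p = 0.482) and Myot at 0.58 ± 0.19 (adjusted p = 0.258). Myot was called without NGMT replicate 3 (0.75, adjusted p = 0.0251). Of 9 tested cardiomyocyte markers, 5 were lower in NGMT than in GMT in set 1 (Ryr2 at -1.39, Actc1 at -1.05, Myl7 at -0.95, Mybpc3 at -0.63 and Tnni3 at -0.51) and 0 in set 2, and the set difference was called for 3, all lower in set 1. Nppa was higher in both sets, by 3.15 and 2.87. Of the fibroblast markers, 3 of 9 were higher in NGMT in set 1 and 0 in set 2, and the set difference was called for 0. The part of these markers in the Z-disc differences was not tested.

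**Figure D3:**
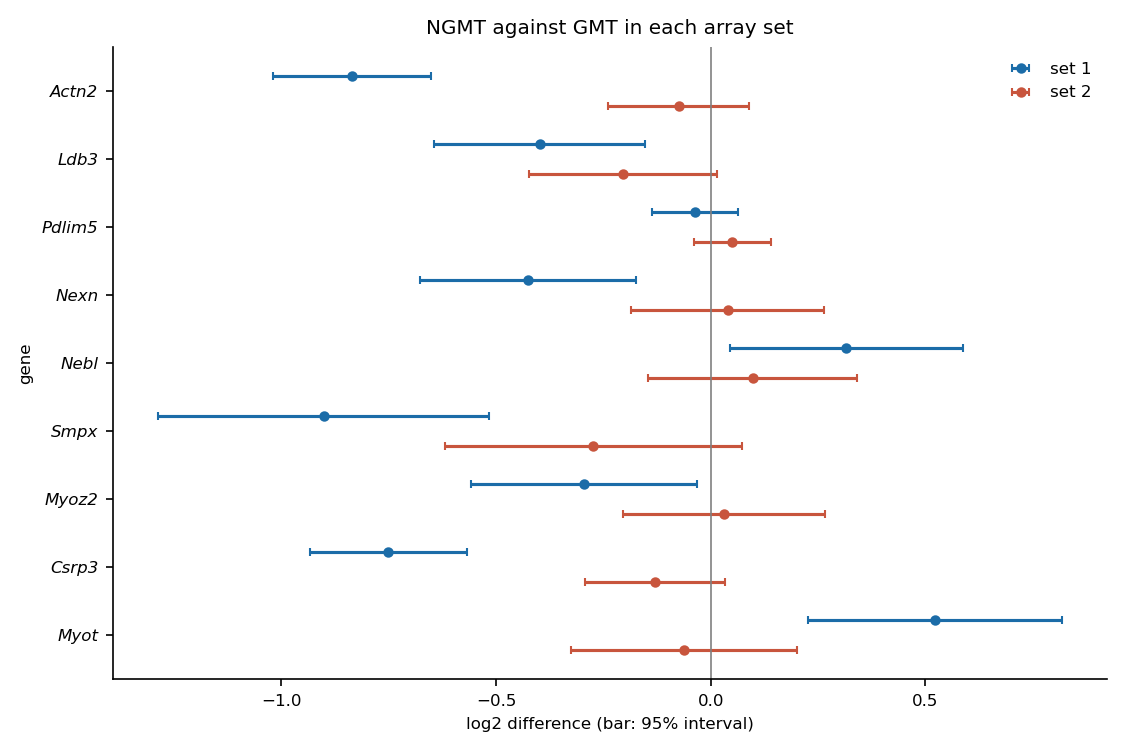
Log2 difference of NGMT from GMT for the 9 tested Z-disc genes (rows), separately in array sets 1 and 2, with 95% intervals as bars. For Actn2 and Csrp3 the intervals of the sets do not overlap, at -0.84 and -0.75 in set 1 against -0.07 and -0.13 in set 2.

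With Hand2 added, Smpx fell, Myoz2 was lower at a level below the array median, and the other 7 tested genes were not called. Smpx read 8.70, 8.74 and 9.09 on the GMT arrays of set 2 and 6.84, 6.51 and 6.58 on the HGMT arrays. Every HGMT array was below every GMT array, by 4.59-fold on average (-2.20 ± 0.17, n = 3 against 3, adjusted p = 6.45e-10). Among cells that also had NKX2.5, Smpx read 8.64, 8.56 and 8.51 in NGMT and 7.34, 6.66 and 6.72 in HNGMT. It was 3.17-fold lower there (-1.67 ± 0.17, adjusted p = 8.6e-08). HNGMT replicate 1, the array that stood apart, had the highest Smpx of its group, and without it the difference was -1.88 ± 0.16 (adjusted p = 6.78e-09).

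Myoz2 read 5.91 to 6.07 in GMT, 5.68 to 6.21 in NGMT, 5.31 to 5.40 in HGMT and 5.37 to 5.58 in HNGMT, all below the array median. The difference was -0.61 ± 0.11 for HGMT against GMT (adjusted p = 0.000279) and -0.54 ± 0.11 for HNGMT against NGMT (adjusted p = 0.00112), between signals that were all low. With Myoz2, 2 of 9 genes were lower and 0 higher in each comparison, and without it 1 of 8, where 12.7% of all tested genes were lower and 11.2% higher in HGMT than in GMT, and 20.9% lower and 7.67% higher in HNGMT than in NGMT. These comparisons share no arrays.

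The crosslinker and the actin-binding genes showed no such difference with Hand2. Actn2 read 7.21, 7.19 and 7.30 in HGMT and overlapped GMT, with a difference of -0.07 and a 95% interval from -0.24 to 0.09. For Nexn the difference was 0.09 (interval from -0.13 to 0.32), for Nebl 0.06 (-0.18 to 0.30), for Csrp3 -0.01 (-0.18 to 0.15) and for Pdlim5 -0.05 (-0.14 to 0.04). Ldb3 read 8.24, 8.29 and 8.21 in HGMT against 8.54, 8.39 and 8.48 in GMT. These did not overlap, but the difference of -0.22 ± 0.11 was not called (adjusted p = 0.136). In HNGMT against NGMT, Ldb3 differed by -0.22 ± 0.11 (adjusted p = 0.131) and Pdlim5 by -0.11 ± 0.04 (adjusted p = 0.0696), neither called. Ldb3 was called there without NGMT replicate 5 (-0.32, adjusted p = 0.0408), and Pdlim5 without HNGMT replicate 2 (-0.13, adjusted p = 0.043). With Hand2 present, adding NKX2.5 (HNGMT against HGMT) gave 0 calls and 0 unadjusted p under 0.05 among the 9, where limma called 0.491% of all tested genes. The Hand2 effect with NKX2.5 minus that without was called for 0 of 12211 genes (0% of those tested, 1157 of them with an unadjusted p under 0.05), and for Smpx it was 0.53 ± 0.24 (adjusted p = 0.52).

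Several marker lists moved with Hand2. All 7 adipocyte markers were higher in HGMT than in GMT, with a mean level of 9.14 to 9.47 against 8.12 to 8.43. Of 9 tested cardiomyocyte markers, 4 were lower and 1 higher, with Myl7 at -2.10, Tnni3 at -1.98 and Nppa at -1.51. In HNGMT against NGMT, 5 of 7 adipocyte markers were higher, with a mean level of 8.68 to 9.62 against 8.26 to 8.62. There, 5 of 8 macrophage markers were also higher, though the mean levels overlapped (6.44 to 7.38 against 6.25 to 6.72). In HGMT against GMT, by contrast, 0 of the 8 macrophage markers were higher and 2 were lower. In HNGMT against NGMT, 3 cardiomyocyte markers were lower and 1 higher. The part of these lists in the fall of Smpx and Myoz2 was not tested.

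Replacing GATA4 by MYOCD (DMT against GMT, 3 arrays each in set 2) moved 6 of the 9 genes, 4 up and 2 down (4 and 1 of 8 without Myoz2), where 9.11% of all tested genes were called higher and 8.15% lower. The largest rise was that of Nebl. It read 6.92, 7.05 and 7.14 in GMT and 7.83, 8.33 and 8.29 in DMT, with no overlap. It was 2.16-fold higher in DMT (1.11 ± 0.12, adjusted p = 1.37e-07). A second probe set of Nebl, below the array median on all 28 arrays, read 5.68 to 5.74 in GMT and 5.79 to 5.93 in DMT.

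Nexn read 7.38, 7.49 and 7.72 in GMT and 8.16, 8.59 and 8.56 in DMT, a rise of 0.90 ± 0.11 (adjusted p = 9.49e-07). Actn2 read 7.38, 7.25 and 7.28 in GMT and 7.88, 7.99 and 8.18 in DMT, a rise of 0.72 ± 0.08 (adjusted p = 2.61e-07). For both genes the DMT arrays were the highest of set 2. Pdlim5 read 11.30, 11.39 and 11.25 in GMT and 11.54, 11.56 and 11.68 in DMT. This rise was small in size and called, 0.28 ± 0.04 (adjusted p = 3.4e-05).

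Smpx and Myoz2 were lower in DMT. Smpx read 7.90, 7.65 and 7.90, between the GMT and the HGMT arrays and overlapping neither. It was 2.04-fold lower than in GMT (-1.03 ± 0.17, adjusted p = 5.76e-05) and 2.24-fold higher than in HGMT (1.17 ± 0.17, adjusted p = 5.12e-06). Myoz2 read 5.45 to 5.53, at a difference of -0.49 ± 0.11 from GMT (adjusted p = 0.00271), with both groups below the array median. Ldb3 at 8.58, 8.65 and 8.94 lay above the GMT arrays without a call (0.25 ± 0.11, adjusted p = 0.116). Myot differed by 0.29 ± 0.13 (adjusted p = 0.135), and Csrp3 by -0.19 ± 0.08 (adjusted p = 0.116), which was called without GMT replicate 5 (-0.27, adjusted p = 0.0243).

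Against the other groups of set 2, DMT gave these values. Compared with NGMT, 5 of 9 genes were higher and 2 lower, where 9.53% and 9.01% of all tested genes were. Nebl differed by 1.01 ± 0.12, Nexn by 0.86 ± 0.11, Actn2 by 0.79 ± 0.08, Ldb3 by 0.46 ± 0.11 (adjusted p = 0.00251) and Pdlim5 by 0.23 ± 0.04, while Smpx differed by -0.76 ± 0.17 and Myoz2 by -0.52 ± 0.11. Compared with HGMT, 7 of 9 were higher and 0 lower, where 20.7% of all tested genes were higher and 15.9% lower. There, Ldb3 was higher by 0.48 ± 0.11 (adjusted p = 0.000877) and Myot by 0.51 ± 0.13 (adjusted p = 0.00253). Myot read 6.36 to 6.64 in DMT and 5.99 to 6.06 in HGMT, below the array median on all of these arrays. Without Myoz2 and Myot, 6 of 7 genes were higher than in HGMT. The 3 comparisons share the DMT arrays and are not independent of each other, and those against GMT share the GMT arrays.

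Markers of other muscle types were higher in DMT. All 7 smooth muscle markers were higher than in GMT (Cnn1 by 4.68 and Myh11 by 4.49), with a mean level of 10.44 to 10.67 in DMT and 8.05 to 8.21 in GMT. Of 8 tested skeletal muscle markers 6 were higher and 0 lower (Acta1 by 3.45 and Mylpf by 2.05), with a mean level of 7.20 to 7.23 against 6.18 to 6.32. Of 9 tested cardiomyocyte markers 3 were higher (Nppa by 3.70, Actc1 by 2.50 and Myh6 by 2.49) and 4 lower (among them Tnni3 at -2.17). Adipocyte markers were lower for 5 of 7 and higher for 0, with a mean level of 7.25 to 7.46 in DMT and 8.12 to 8.43 in GMT. Mesothelial markers were lower for 4 of 6 and higher for 0 (6.52 to 6.63 against 7.45 to 7.64). The part of smooth or skeletal muscle RNA, or of these other cell types, in the Z-disc differences was not tested.

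**Figure D4:**
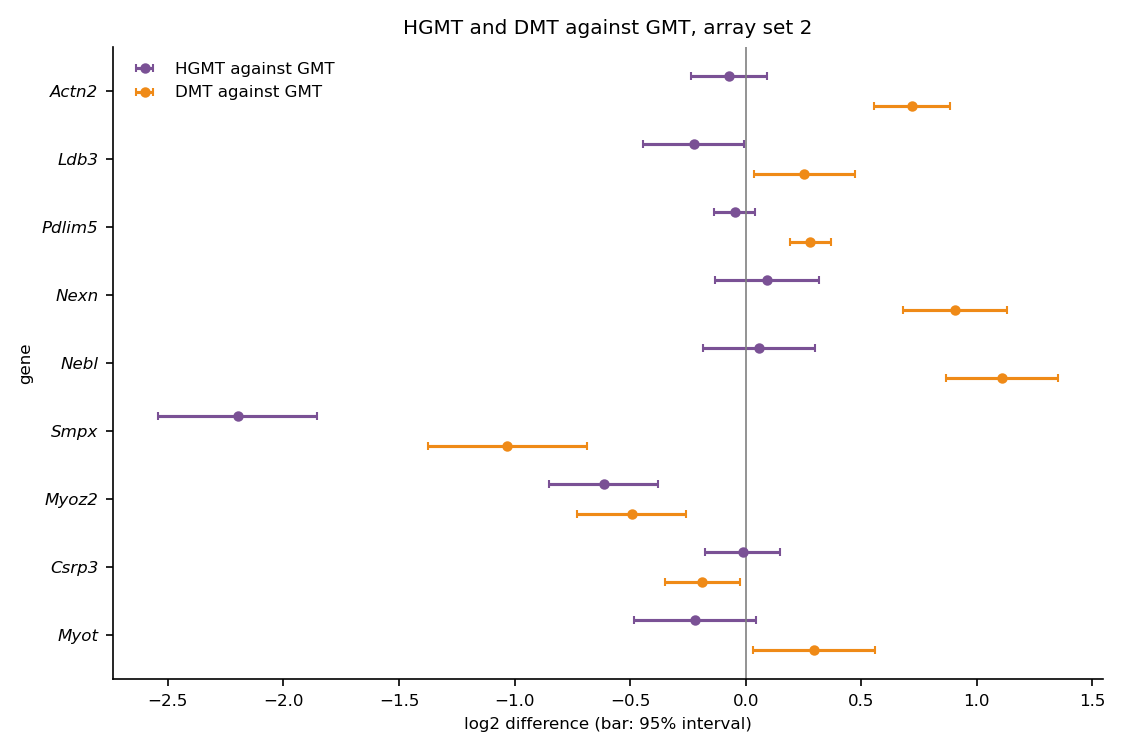
Log2 difference from GMT of the 9 tested Z-disc genes (rows) in HGMT and in DMT, array set 2, with 95% intervals as bars. Smpx and Myoz2 lie below 0 in both (-2.20 and -0.61 in HGMT, -1.03 and -0.49 in DMT), whereas Nebl, Nexn and Actn2 lie above 0 only in DMT among the called differences (1.11, 0.90 and 0.72).

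NKX2.5 was also added to the MYOCD combination, in set 3, where DMT has 1 array, whose spread is assumed equal to that of the other groups. In limma's test 0 of the 9 genes were called and 1 had an unadjusted p under 0.05, where 0.0655% of all tested genes were called and 373 had an unadjusted p under 0.05. Actn2 read 9.60 in DMT replicate 4 and 9.46, 9.41, 9.40 and 9.48 in DMNT. Smpx read 8.94 and then 8.75, 8.75, 8.75 and 8.64, and Nebl 9.32 and then 9.27, 9.12, 9.23 and 9.27. For these 3 genes the DMT array was the highest of the set. The largest difference among the 9 was that of Myot, 7.34 in DMT and 7.68 to 7.77 in DMNT (0.37 ± 0.17). Nexn read 9.50 in DMT and 9.49 to 9.50 in DMNT. Tcap read 7.36 to 7.48 in DMNT and 7.39 in DMT, below the array medians of this set.

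HGMT, HNGMT, DMT and DMNT share no set with 0F, so that their distance from 0F needs a fit in which sets differ by a constant. The difference of Actn2 between the sets goes against that. Csrp3 differed between the sets too, but it met the filter only because of its GMT arrays, and its call depended on GMT replicate 2. Myoz2 and Myot were left out, because they were called in this additive fit and turned in sign under the alternative below. Of the other genes, 7 of 7 were higher than 0F in HGMT, 6 in HNGMT, 7 in DMT and 6 in DMNT. Of all tested genes 29.9%, 26.5%, 34.6% and 26.4% were higher. The 7 still include Actn2 and Csrp3, so these counts rest on an assumption that the set difference of Actn2 goes against. Ldb3 was higher by 2.07 ± 0.13, 1.88 ± 0.13, 2.55 ± 0.13 and 2.45 ± 0.20, and Pdlim5 by 0.82 ± 0.05, 0.81 ± 0.05, 1.15 ± 0.05 and 1.03 ± 0.08. In a direct difference after quantile normalization with no set term, 4 of the 9 genes were called in HGMT and 4 in HNGMT. The HGMT calls of Actn2, Csrp3 and Nebl were lost there (0.19, 0.17 and 0.02, adjusted p = 0.602, 0.38 and 0.94). In HNGMT those of Actn2 and Csrp3 were lost (0.27 and 0.12, adjusted p = 0.455 and 0.53). In DMT those of Csrp3 and Myot were lost (0.08 and 0.25, adjusted p = 0.6435 and 0.4538). The sign of Myoz2 then turned in all 4 groups (to -0.41, -0.30, -0.24 and -0.21), and that of Myot in HGMT (to -0.28) and HNGMT (to -0.19). No distance from 0F is therefore given for Myoz2 and Myot in sets 2 and 3. Nebl, not called in HNGMT in the additive fit, also turned in sign there (to -0.07).

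The order of the group means within set 2 differed between the genes. DMT was highest, with no overlap with the next group, for Actn2, Ldb3, Nexn, Nebl and Pdlim5. Below DMT the other 4 groups overlapped their neighbours for Actn2, Nexn, Nebl and Pdlim5. Ldb3 went on from DMT to GMT, then to NGMT and HGMT, which overlapped, and then to HNGMT, which read 7.83, 8.14 and 8.18. For Smpx the order was GMT, NGMT, DMT and then HNGMT and HGMT, which overlapped. For Csrp3 neighbours in the order overlapped throughout, from GMT at 6.68 to 6.92 down to DMT at 6.61 to 6.68. In set 1, GMT was highest without overlap for Actn2, Csrp3, Ldb3, Nexn and Smpx, and NGMT for Myot and Nebl. Separate ranges are not calls. In NGMT against GMT of set 1 neither Ldb3 nor Nebl was called, and in DMT against GMT Ldb3 was not. The share of all tested genes whose ranges separate in this way was not counted, so these orders only describe the values.

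Across the 28 arrays, with each set's mean subtracted, the members correlated with each other to different degrees. Ldb3 and Pdlim5 correlated at a Pearson r of 0.95, Myoz2 and Smpx at 0.93, and Actn2 and Nexn at 0.91, while Csrp3 and Nebl stood at -0.14. Genes of different pairs also correlated highly, with Ldb3 and Myoz2 at 0.87, Nexn and Pdlim5 at 0.87 and Actn2 and Ldb3 at 0.85. These values describe 28 arrays that share groups and sets, and they carry no test. The tested genes most like each member by the same measure were Actc1 (cardiac alpha-actin, r = 0.94) for Actn2, Slc38a1 (0.99) for Ldb3, Anxa3 (0.98) for Pdlim5, Ctsc (0.96) for Nexn and Fhl1 (0.93) for Nebl. For Smpx the most like gene was 2610528A11Rik (0.98), for Myoz2 Fgf9 (0.97), for Csrp3 Hpx (0.90) and for Myot Grpr (0.92). Pdk4 (pyruvate dehydrogenase kinase) was among the 3 most like genes of both Smpx and Myoz2, at 0.97 in each. Sorbs2, a Z-disc and costamere adaptor, was among those of Nexn (0.95), Myom1, the M-band protein myomesin, among those of Nebl (0.93), Jph2, the junctophilin of the heart, among those of Pdlim5 (0.97), and Lmcd1, a LIM protein, among those of Myot (0.88).

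A wider list of 43 other Z-disc genes, 35 of them tested, moved less evenly. In GMT against 0F 21 were higher and 4 lower, where 34.2% and 22.3% of all tested genes were, and their median difference was 0.37 against 0.05 over all genes. Ankrd1 (the stress-responsive titin-binding protein CARP) was higher by 6.28 ± 0.11, Hspb7 (a small heat shock protein of the heart) by 3.45 ± 0.09 and Cap2 (an actin regulator) by 3.31 ± 0.11. In NGMT against 0F 22 were higher and 3 lower (34.9% and 23.3% of all tested genes). NKX2.5 in set 1 gave 1 higher and 3 lower (2.31% and 2.39% of all tested genes), and the 3 were Cap2 (-0.87 ± 0.11), Ankrd1 (-0.42 ± 0.11) and the giant sarcomere protein gene Ttn (-0.41 ± 0.09), and in set 2 it gave 0 in either direction. The set difference of this effect was called for Ttn (-0.58 ± 0.12, adjusted p = 0.0162).

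In HGMT against GMT, 5 of the 35 were higher and 7 lower, where 11.2% and 12.7% of all tested genes were, with a median of -0.01. Fhl2, a LIM protein that binds titin, rose by 1.52 ± 0.06 and Pdlim3, the alpha-actinin binding ALP protein, by 1.01 ± 0.08, while Cap2 was lower (-0.81 ± 0.10). HNGMT against NGMT gave 5 higher and 12 lower (7.67% and 20.9% of all tested genes), with the same 3 genes at 1.35 ± 0.06, 0.91 ± 0.08 and -0.69 ± 0.10. With MYOCD in place of GATA4, 15 were higher and 5 lower, where 9.11% and 8.15% of all tested genes were, with a median of 0.15. Pdlim3 rose by 2.15 ± 0.08, Synpo2 (myopodin) by 1.96 ± 0.09 and Fhl1 by 1.89 ± 0.07.

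Of 33 other costamere genes, 29 were tested. In GMT against 0F 17 were higher and 8 lower, beside 34.2% and 22.3% of all tested genes, with a median of 0.26. Itga7, the laminin-binding integrin of muscle, was higher by 2.51 ± 0.09 and Lims2, an adaptor of integrin-linked kinase, by 2.11 ± 0.13, while Ank2 (ankyrin-B) was lower (-2.02 ± 0.08). NGMT against 0F gave 16 higher and 8 lower, beside 34.9% and 23.3%. NKX2.5 gave 2 higher and 2 lower in set 1, beside 2.31% and 2.39%, and 0 in either direction in set 2. The set difference was called for Ank3 (ankyrin-G, 0.62 ± 0.13) and Sgcd (delta-sarcoglycan, 0.51 ± 0.11). HGMT against GMT gave 7 higher and 6 lower, beside 11.2% and 12.7% of all tested genes, with Lama2 (the laminin chain of muscle) at 0.76 ± 0.16 and Lims2 at -0.60 ± 0.12. In DMT against GMT 15 were higher and 1 lower, beside 9.11% and 8.15%, with a median of 0.28, led by Itgb1bp2 (melusin, 1.79 ± 0.07), Lims2 (1.59 ± 0.12) and Dtna (alpha-dystrobrevin, 1.52 ± 0.10).

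**Figure D5:**
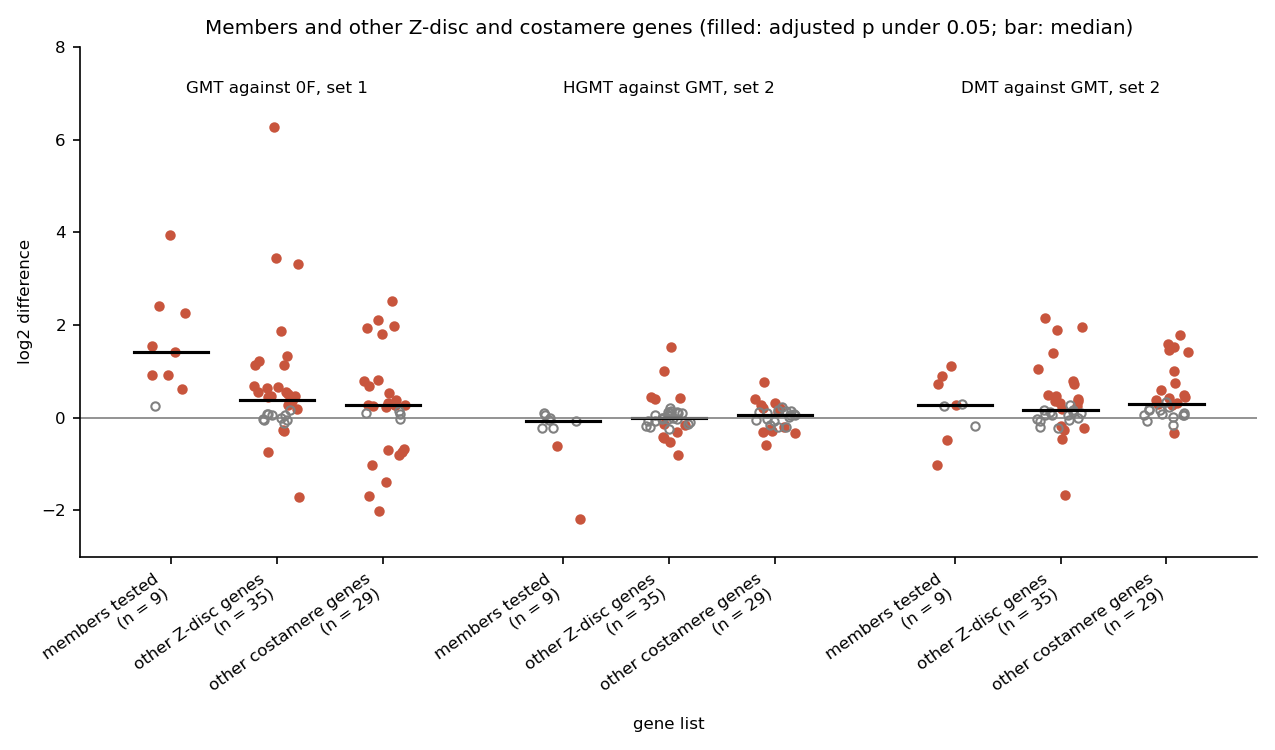
Log2 differences of the Z-disc genes, the other Z-disc genes and the other costamere genes in comparisons within 1 array set, 1 point per tested gene (filled where called), with the median of each list as a bar. In GMT against 0F the medians are 1.42, 0.37 and 0.26, and in DMT against GMT they are 0.28, 0.15 and 0.28. The 1.42 includes Myoz2, which the filter admitted because it was high on transduced arrays of set 1, and is 1.17 without it. Csrp3, which met the filter only because of its GMT arrays, is in both values.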

How the data were processed

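RNA of 28 mouse cultures was hybridized to 1-colour arrays. The authors deposited log2 signal for 35556 probe sets, from 3.757941 to 14.46866. Per the submitters' processing notes MAS5 was used. The sources used here give neither its version nor the summarization and scaling. No column was left out (0). The number of arrays limits the precision. Over the tested genes the median half-width of the 95% interval was 0.16 for GMT against 0F and 0.14 within set 2.

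Probe sets were named from the platform's annotation where it gave 1 symbol (21789 probe sets, against 1621 with several and 12146 with none). The probe set with the highest mean stood for a gene. Differences were tested two-sided with limma 3.58.1 in R 4.3.3 (lmFit, contrasts and eBayes with trend), with 1 mean per group in each set (18 residual degrees of freedom), checked on simulated data. Comparisons of HGMT, HNGMT, DMT and DMNT with 0F used an additive fit of group and set (19 residual degrees of freedom). Where 1 array stands for a group, it is taken to vary like the others. Intervals are 95% intervals of limma's moderated statistic.

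The genes, the lists and the tests were chosen with earlier results of these data known. All 10 genes are named, with the 3 tested genes of highest Pearson r to each (the first of them, and others with a known muscle role, in the text) and up to 3 called genes of largest change per further list. Promoter windows came from RefSeq (GRCm38.p6). Entries were found for Actn2, Ldb3, Myoz2, Pdlim5, Csrp3, Smpx and Nebl. GATA, MEF2, CArG box, TEAD, E-box, T-box and NKX2.5 motifs were searched on both strands, and the shares of the motifs shown stand beside the sequences. Alternatives were quantile normalization, no filter, the mean of probe sets, no trend, an additive fit, each set alone, replicate blocks, a direct difference without a set term and leaving out each array in turn.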

Additional observations from a re-analysis of the deposited data

Results flagged for a closer look

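In 10 checks of the 4 DMNT arrays, 1 per gene, 4 genes had a single array marked as apart from the rest. Csrp3 read 7.40 in DMNT replicate 3 against 7.59 in the others, and Myot read 7.77 in the same replicate against 7.68. Myoz2 read 6.24 in DMNT replicate 2, and Smpx read 8.64 in DMNT replicate 4 against 8.75. In each of these 4 genes the other DMNT arrays held exactly equal values, so the check marks any gap, however small. The marks therefore carry no chance rate and say nothing on the size of the gap. Many values of set 3 are exactly equal on several arrays.

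The NKX2.5 effect on 2 genes differed between array sets 1 and 2 by a test of that difference. It was -0.76 for Actn2 and -0.62 for Csrp3 (limma, set 1 minus set 2). Csrp3 met the filter only because of its GMT arrays.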

How the results depend on the processing

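Counts of the 9 tested genes that passed kept within 1.5 times of those reported except as follows. In the additive fit of group and set, NGMT against GMT gave 3 genes, against 5 in set 1 and 0 in set 2. Without each array in turn, that count ran from 2 to 5 in set 1 and that of the set difference from 1 to 3. In the direct difference without a set term, 4 genes were called in HGMT and 4 in HNGMT against 0F. Myoz2 turned to -0.41, -0.30, -0.24 and -0.21 in HGMT, HNGMT, DMT and DMNT. Myot turned to -0.28 and -0.19 in HGMT and HNGMT, and Nebl, which had not been called, to -0.07 in HNGMT. The cause was not tested.

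Replicate numbers did not pair the samples: arrays with the same title number correlated between -0.26 and 0.41 in 21 pairs, 7 of them over 0.1. With the replicate block, HNGMT against NGMT gave 1 gene in place of 2 (Myoz2 -0.30, adjusted p = 0.272), and DMT against NGMT lost Smpx (-0.70, adjusted p = 0.16) and Myoz2 (-0.28, adjusted p = 0.374). In NGMT against GMT of set 1 Nexn missed the threshold with that block (adjusted p = 0.0516) and Ldb3 passed it (-0.44, adjusted p = 0.0174), also with the block by description number (adjusted p = 0.045).

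Over all genes, NGMT against GMT gave 574 calls in set 1 (159 to 724 without each array in turn) and 4 in set 2, but 199 in the additive fit, and, for set 2, also 12 with no filter and 1 with the set alone. The count in set 2 ran from 2 to 9 without each array in turn. Their difference between sets gave 78, but 43 with the replicate block and 23 to 179 without each array in turn. HNGMT against NGMT gave 3486, but 1056 with the replicate block and 2145 with the set alone. HNGMT against HGMT gave 60, but 34 after quantile normalization, 36 with no filter, 2 with the replicate block, 138 with the block by description number and 1 with the set alone. It gave 14, 2343 and 3058 without HNGMT replicates 1, 2 and 3, and 1, 5 and 11 without HGMT replicates 1, 2 and 3. DMT against NGMT gave 2264, but 1286 with the block. DMNT against DMT gave 8, but 0 with the block. The change of the Hand2 effect with NKX2.5 gave 0, but 1 with no filter, 2 with the block by description number and 0 to 20 without each array in turn (20 without HNGMT replicate 3). DMNT against 0F gave 5060, but 7787 in the direct difference.

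Values below the array median (Tcap on every array, Myoz2 in sets 2 and 3, Myot in set 2) limit what can be read from those genes. No fit of the DMNT comparisons exists without DMT replicate 4.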
